A study of Mus musculus with 20 samples.

Results

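The genes described here encode the enzymes that attach ubiquitin to proteins and remove it again, as measured in hind limb and fore limb muscle of SOD1G93A mice and in muscle after nerve crush. They were taken by name: every probe set whose only gene symbol starts with Ube, Usp, Uch, Cul, Fbxo, Fbxw, Fbxl, Trim, Rnf or Otu, except Fbxo32 and Trim63. This gave 228 of 10748 probe sets, for 144 of 6603 genes. The names follow a protein domain or family, so some members may have no ubiquitin activity of their own. All 228 matched the mouse RefSeq gene table by gene ID.

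The arrays fall into 5 groups of 4, all from female C57BL/6 mice aged 14 weeks: SOD1G93A gastrocnemius (called SOD1 here; a calf muscle of the hind limb), gastrocnemius after sciatic nerve crush, gastrocnemius of non-transgenic (NTg) mice, SOD1 triceps (a fore limb muscle) and NTg triceps. SOD1 mice carry a human SOD1 transgene with the G93A mutation of familial amyotrophic lateral sclerosis, and were at a symptomatic stage. The nerve had been crushed for 30 s at 12 weeks, 2 weeks before the muscle was taken. Neither the genotype of the mice with a crushed nerve nor a sham operation is stated.

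Ubiquitin is activated by an E1 enzyme, passed to an E2 conjugating enzyme and joined to a lysine of the target protein with the help of an E3 ligase, which chooses the target. Cullins are scaffolds that hold a RING protein and a substrate receptor, such as an F-box protein, in a multi-subunit E3; TRIM and many Rnf proteins carry the RING domain themselves. Deubiquitinases, among them the USP, UCH and OTU families, cut ubiquitin off. In skeletal muscle, this system and the proteasome break down much of the contractile protein that is lost in atrophy, and the ligases encoded by Fbxo32 (atrogin-1) and Trim63 (MuRF1) are its best known atrophy markers.

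Array values are deposited MAS5 signals on a log2 scale, and a change is the difference of 2 group means on that scale. Array medians lay between 6.61 and 6.76. A probe set was tested if its mean over all arrays was at least 5.88, which kept 7523 probe sets, and was called if limma's p adjusted by Benjamini-Hochberg over all of them was under 0.05. Of the members, 163 probe sets for 114 genes passed that filter, and 65 did not, leaving 30 genes untested. Of 10 skeletal muscle marker genes, all 10 were tested and none was called in SOD1 or crushed muscle; their summed linear signal was 38629 to 62763 in SOD1 gastrocnemius and 33895 to 63501 in NTg gastrocnemius. Crush replicate 4 stood apart: the summed signal of 6 denervation-response genes (Chrna1, Chrng, Myog, Ncam1, Runx1, Gadd45a) was 6272 in it, while the crush median was 431 and the lowest crush array had 374. The range was 1320 to 4407 in SOD1 gastrocnemius and 240 to 287 in NTg gastrocnemius. The description of NTg triceps replicate 4 names the gastrocnemius, while its title, source and tissue label say triceps, and it was kept as triceps. The labels call the replicates biological replicates, and p-values measure the spread between these arrays.

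Promoters of 5 genes whose level fell in SOD1 gastrocnemius are shown first, because each had at least 1 probe set called in every alternative tried, as had Usp9x. Each line gives the 250 bases before the first RefSeq transcript start listed for the gene (GRCm38.p6), 5′ to 3′ on the gene's strand. Capitals mark matches, on either strand, to CAGCTG (an E-box of the kind bound by myogenic factors), GGGCGG (a GC box) or CCAAT; a MEF2 site and a FoxO site were also searched and were in none of the 5 windows. The windows are chr1:80340691-80340940 on the minus strand for Cul3, chr10:71285263-71285512 on the minus strand for Ube2d1, chr3:135437982-135438231 on the plus strand for Ube2d3, chr11:52000787-52001036 on the minus strand for Ube2b and chr5:31116362-31116611 on the plus strand for Trim54.
Cul3: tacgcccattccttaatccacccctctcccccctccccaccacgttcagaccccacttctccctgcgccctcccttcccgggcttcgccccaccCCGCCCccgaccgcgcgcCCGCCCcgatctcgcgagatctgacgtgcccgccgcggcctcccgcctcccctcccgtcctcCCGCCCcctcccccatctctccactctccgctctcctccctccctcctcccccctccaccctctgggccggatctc
Ube2d1: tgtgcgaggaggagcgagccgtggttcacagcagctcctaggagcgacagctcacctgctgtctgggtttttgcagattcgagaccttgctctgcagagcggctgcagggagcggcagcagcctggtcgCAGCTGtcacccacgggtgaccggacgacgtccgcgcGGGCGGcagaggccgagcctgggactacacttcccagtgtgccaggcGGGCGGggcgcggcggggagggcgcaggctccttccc
Ube2d3: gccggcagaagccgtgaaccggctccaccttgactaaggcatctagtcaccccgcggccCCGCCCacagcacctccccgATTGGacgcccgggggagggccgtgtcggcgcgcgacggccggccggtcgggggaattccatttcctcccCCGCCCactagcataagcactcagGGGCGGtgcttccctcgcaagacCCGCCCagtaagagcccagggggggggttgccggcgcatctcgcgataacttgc
Ube2b: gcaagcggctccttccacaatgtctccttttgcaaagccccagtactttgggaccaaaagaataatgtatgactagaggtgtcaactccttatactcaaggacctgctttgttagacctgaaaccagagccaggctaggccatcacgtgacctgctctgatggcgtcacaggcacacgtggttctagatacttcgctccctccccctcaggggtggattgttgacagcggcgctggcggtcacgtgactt
Trim54: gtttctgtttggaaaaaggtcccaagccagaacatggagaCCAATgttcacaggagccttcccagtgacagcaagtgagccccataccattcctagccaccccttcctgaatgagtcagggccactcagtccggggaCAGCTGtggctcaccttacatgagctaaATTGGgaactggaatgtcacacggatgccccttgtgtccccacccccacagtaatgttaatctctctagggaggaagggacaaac
The Cul3 window held 3 GC boxes and the Ube2d1 window 2 GC boxes and 1 CAGCTG. The Ube2d3 window held 4 GC boxes and 1 CCAAT. The Trim54 window, of a gene made mainly in striated muscle, held 1 CAGCTG and 2 CCAAT, and the Ube2b window held none of these letters.

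SOD1 gastrocnemius had lower levels of a set of E2 enzymes, the scaffold Cul3 and several deubiquitinases than NTg gastrocnemius, and higher levels of 4 RING finger genes and the E2 gene Ube2g2. Of the 163 tested members, 26 probe sets of 20 genes were called, 5 higher and 21 lower. This is 16% of the members, against 12% of all tested probe sets. By direction, 12.9% of the members were called lower, against 6.02% of all probe sets, and 3.07% were called higher, against 5.97%. At an unadjusted p under 0.05 there were 51 members (31.3%, against 29.5% of all). The median change was -0.09 over the members and -0.0015 over all tested probe sets, and 100 of the 163 members were below 0. The arrays of the groups did not overlap for 48 members (29.4%; 26% of all probe sets), of which 38 were lower in SOD1 muscle. Fewer members were called when any 1 of the compared arrays except SOD1 replicate 1 was left out, and the share of all probe sets called was then smaller too. Without SOD1 replicate 4 the count of called members was 7 (4.29%, against 2.37% of all probe sets in the same fit), and without SOD1 replicate 2 or 3 it was 10 (6.13%, against 4.94%) and 13 (7.98%, against 5.54%). Without SOD1 replicate 1 it was 36 (22.1%, against 17.5%). Without NTg replicate 1, 2, 3 or 4 it was 10, 10, 14 and 11, or 6.13%, 6.13%, 8.59% and 6.75% of the members, against 5.88%, 5.57%, 6.62% and 4.85% of all probe sets. The 7 probe sets called in each of these fits and in each other alternative tried were of Cul3, Ube2d1, Ube2b, Ube2d3, Usp9x and Trim54.

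**Figure D1:**
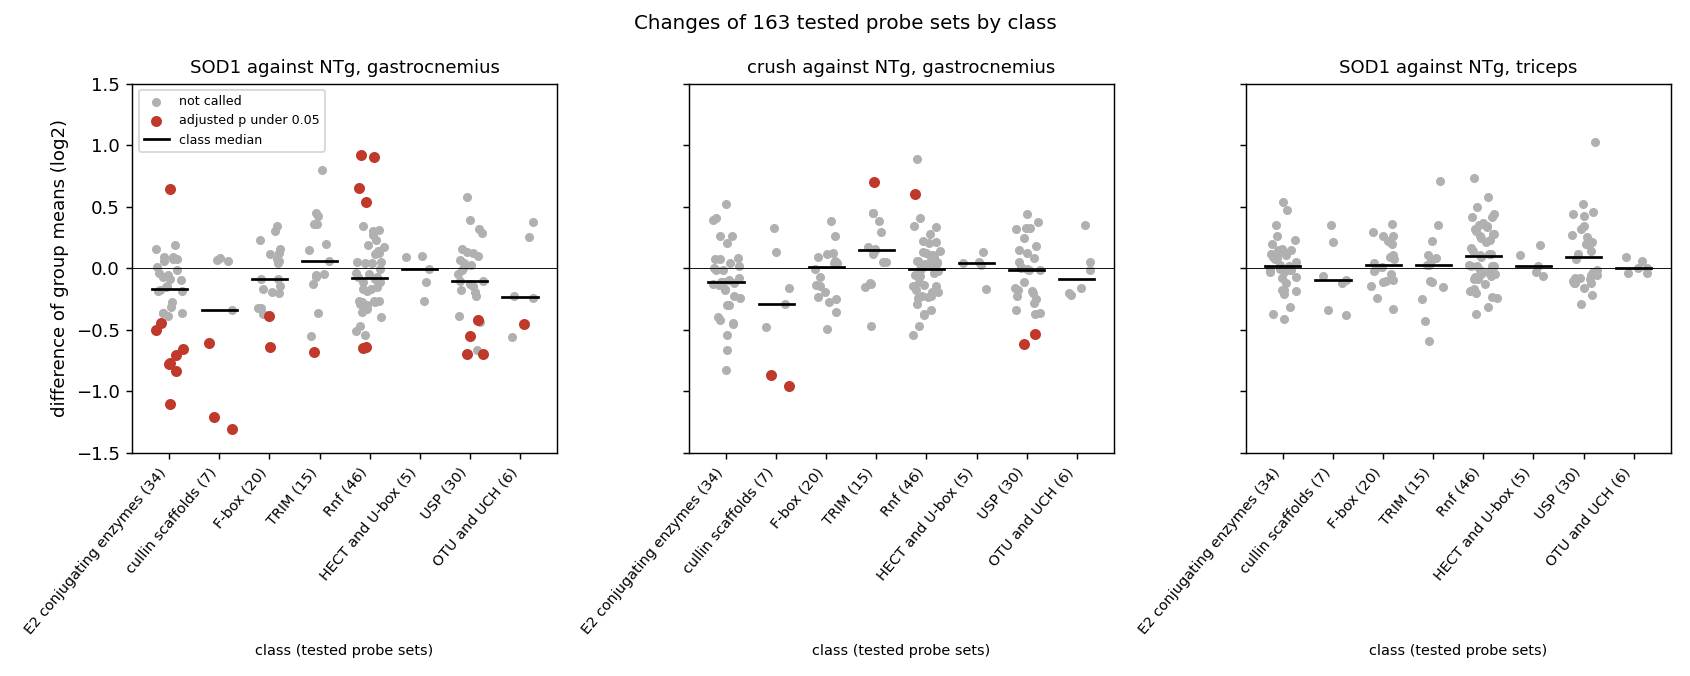
Difference of group means (log2, y axis) of each of the 163 tested probe sets by class (x axis, number of tested probe sets in brackets) in 3 comparisons; red points were called at an adjusted p under 0.05 and black lines are class medians. In SOD1 gastrocnemius 8 E2 probe sets were called lower and 1 higher, in crushed gastrocnemius 6 members were called, and in SOD1 triceps 0.

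Among the E2 conjugating enzymes, 34 probe sets of 19 genes were tested in SOD1 against NTg gastrocnemius. Of these, 8 probe sets of 5 genes fell and 1 rose, and 25 of the 34 changes were below 0, with a class median of -0.17. Those that fell include Ube2d and Ube2e enzymes, which serve many RING ligases.

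Ube2d1, of the UbcH5 family that works with many RING ligases, had log2 signals of 9.59, 9.09, 9.18 and 8.97 in SOD1 gastrocnemius, against 10.38, 10.28, 10.27 and 10.31 in NTg gastrocnemius. All 4 SOD1 arrays lay below all 4 NTg arrays, whose values were within 0.12 of each other. The change was -1.10 (SE 0.22, 2.15-fold lower, adjusted p = 0.00702, limma).

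Ube2d3, of the same family, was measured by 7 tested probe sets, of which 3 fell, by 0.78, 0.71 and 0.44 on the log2 scale (adjusted p = 0.0393, 0.0099 and 0.0326, limma). The probe set with the smallest p had 8.28, 7.93, 8.17 and 7.98 in SOD1 gastrocnemius, against 8.89, 8.80, 8.81 and 8.68 in NTg gastrocnemius. The remaining 4 probe sets were not called, with changes from -0.37 to -0.04. Ube2d2a, also of this family, was not called on any of 4 probe sets, with changes from -0.39 to 0.09.

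Ube2b, the E2 of the Rad6 kind that serves DNA repair ligases and the N-end rule pathway, fell on both of its probe sets. On the more strongly changed one, signals were 9.93, 9.52, 9.85 and 9.32 in SOD1 gastrocnemius and 10.43, 10.55, 10.41 and 10.56 in NTg gastrocnemius, a change of -0.83 (SE 0.18, 1.78-fold lower, adjusted p = 0.00876, limma). The other changed by -0.50 (SE 0.13, adjusted p = 0.0195, limma). On both, no SOD1 array reached the lowest NTg array.

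Ube2r2, a Cdc34-type E2 that works with cullin ligases, fell by 0.77 (SE 0.22, adjusted p = 0.0315, limma), with 7.79 to 8.45 in SOD1 and 8.77 to 9.08 in NTg gastrocnemius. Ube2e1 fell by 0.66 (SE 0.17, adjusted p = 0.022, limma), with 8.62 to 9.04 in SOD1 and 9.31 to 9.64 in NTg gastrocnemius. The exception was Ube2g2, the E2 of degradation at the endoplasmic reticulum. It rose, with 8.28, 8.68, 8.88 and 8.59 in SOD1 gastrocnemius against 8.15, 7.96, 7.99 and 7.75 in NTg gastrocnemius, a change of 0.65 (SE 0.18, 1.57-fold higher, adjusted p = 0.0271, limma). Ube2g1, its relative, had a change of -0.19 (adjusted p = 0.319), and Ube2j1, another E2 of the endoplasmic reticulum, had 0.07 on both probe sets (adjusted p = 0.803 and 0.825).

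**Figure D2:**
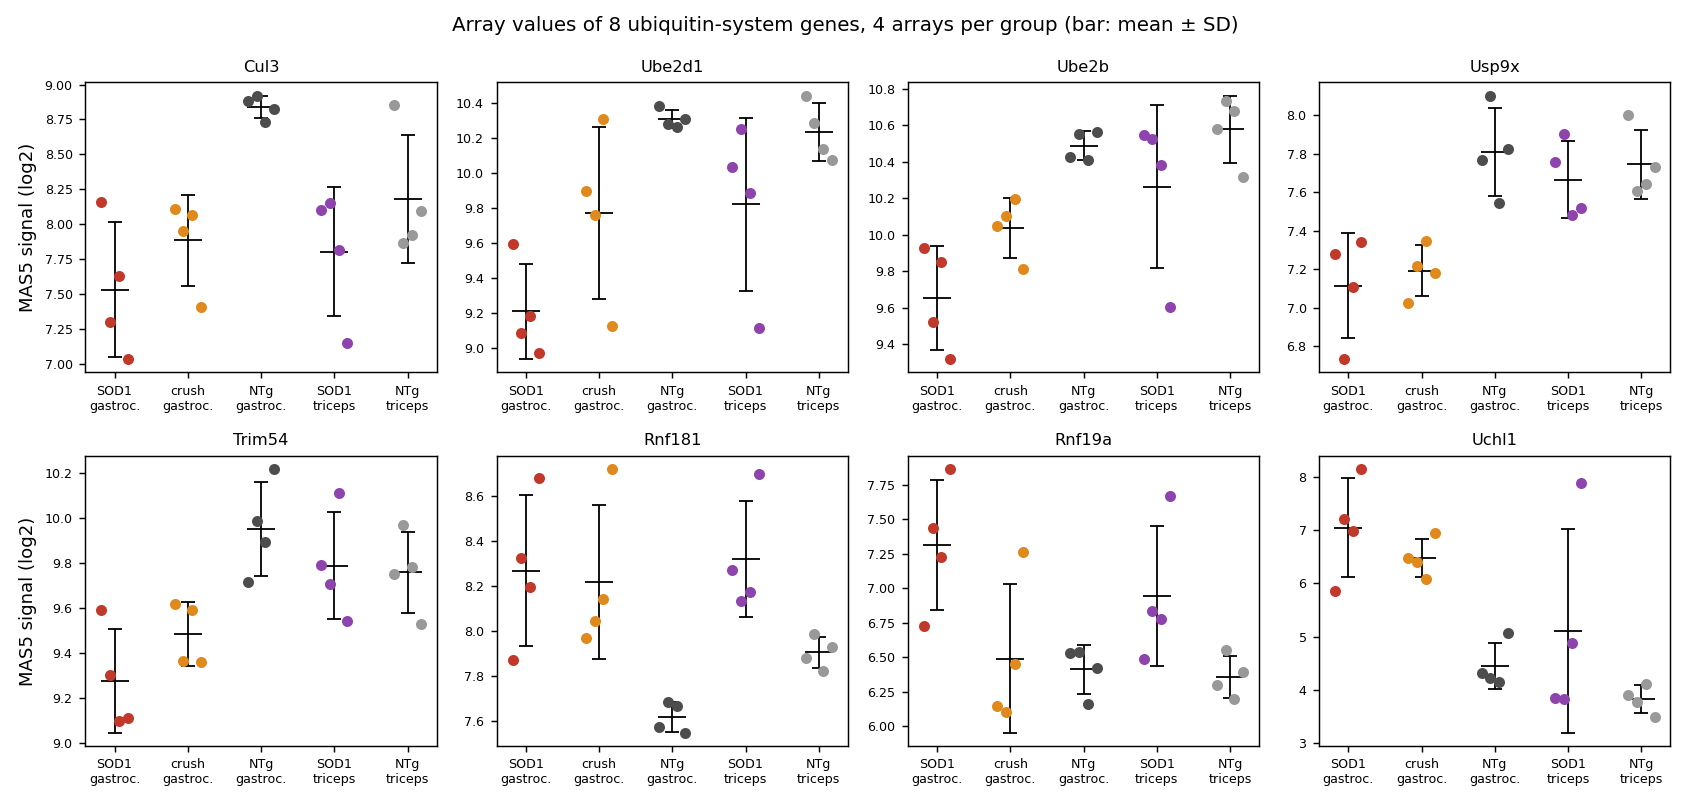
Deposited MAS5 signal (log2, y axis, scaled to each gene and not starting at 0) on each array of the 5 groups (x axis) for 8 genes, 1 probe set each; points are arrays in replicate order and bars the group mean ± SD (n = 4). Cul3, Ube2d1, Ube2b, Usp9x and Trim54 are lower in SOD1 than in NTg gastrocnemius on all 4 arrays, and Rnf181, Rnf19a and Uchl1 are higher. Uchl1 was below the filter on low values.

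Cul3, the cullin that takes BTB-domain proteins as substrate receptors, had the largest fall among all tested members. Its most changed probe set had 8.16, 7.30, 7.63 and 7.04 in SOD1 gastrocnemius and 8.88, 8.92, 8.73 and 8.83 in NTg gastrocnemius. The NTg arrays were within 0.19 of each other and the SOD1 arrays spread over more than 1 log2 unit, with no overlap. The change was -1.31 (SE 0.25, 2.48-fold lower), and the other Cul3 probe sets changed by -1.21 (SE 0.23) and -0.61 (SE 0.17), with adjusted p = 0.00586, 0.00585 and 0.0242 (limma). No other cullin was called: Cul1 had 0.09, Cul2 -0.34 and Cul4a 0.06 (adjusted p = 0.677, 0.0758 and 0.825).

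F-box proteins, the substrate receptors of the Cul1 ligase, were mostly not called: 20 probe sets of 16 genes were tested and 2 fell. Fbxw5, a WD40-repeat F-box protein, had 6.65, 6.67, 6.30 and 6.27 in SOD1 gastrocnemius and 7.14, 7.04, 7.33 and 6.94 in NTg gastrocnemius, a change of -0.64 (SE 0.15, adjusted p = 0.0136, limma). Fbxo8 had 6.87 to 7.07 in SOD1 and 7.34 to 7.42 in NTg gastrocnemius, a change of -0.39 (SE 0.11, adjusted p = 0.0335, limma). Fbxw7, the receptor for cyclin E and Myc, had 0.11 and 0.07 on its probe sets, and Fbxo31 had -0.32 (adjusted p = 0.204).

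Among the tripartite motif proteins, 15 probe sets of 12 genes were tested and 1 fell. It was Trim54, the muscle RING finger protein MuRF3, a relative of Trim63 that binds microtubules and the sarcomere. Its signals were 9.59, 9.30, 9.10 and 9.11 in SOD1 gastrocnemius and 9.71, 9.99, 9.89 and 10.22 in NTg gastrocnemius. The groups did not overlap, although SOD1 replicate 1 came within 0.13 of the lowest NTg array. The change was -0.68 (SE 0.15, 1.6-fold lower, adjusted p = 0.00876, limma). Trim28, the KAP1 corepressor, had 0.42 (adjusted p = 0.0932).

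The Rnf genes were the class with most calls in the other direction: of 46 tested probe sets, 4 rose and 2 fell, with a class median of -0.08. Rnf19a (Dorfin), an RBR-type ligase that is known to ubiquitylate mutant SOD1 in cultured cells, had 6.73, 7.44, 7.23 and 7.86 in SOD1 gastrocnemius and 6.53, 6.54, 6.16 and 6.42 in NTg gastrocnemius. All SOD1 arrays were above all NTg arrays, with replicate 1 closest to them. The change was 0.90 (SE 0.26, 1.87-fold higher, adjusted p = 0.0326, limma).

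Rnf145, a ligase of the endoplasmic reticulum membrane with a part in sterol metabolism, had 5.66, 6.16, 6.56 and 7.11 in SOD1 and 5.33, 6.06, 5.10 and 5.32 in NTg gastrocnemius, a change of 0.92 (SE 0.28, adjusted p = 0.0388, limma). It was the only called member whose arrays overlapped, through SOD1 replicate 1 and NTg replicate 2. Its NTg gastrocnemius arrays other than replicate 2, and SOD1 replicate 1, lay under the filter's level of 5.88. Signals there are near background, so the size of the Rnf145 change is uncertain. Rnf181, a small RING ligase, had 7.87, 8.33, 8.20 and 8.68 in SOD1 and 7.57, 7.68, 7.66 and 7.55 in NTg gastrocnemius, a change of 0.65 (SE 0.17, adjusted p = 0.0212, limma). Rnf187 rose by 0.54 (SE 0.14, adjusted p = 0.0224, limma), with 9.49 to 9.79 in SOD1 and 9.07 to 9.20 in NTg gastrocnemius.

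The Rnf genes that fell were Rnf123 and Rnf14. Rnf123, the ligase subunit KPC1 that acts on the cell cycle inhibitor p27, had 7.80, 7.75, 7.35 and 7.41 in SOD1 and 8.27, 8.28, 8.10 and 8.26 in NTg gastrocnemius, a change of -0.65 (SE 0.17, adjusted p = 0.0214, limma). Rnf14, an RBR ligase also known as an androgen receptor coactivator, was called on 1 of 3 tested probe sets, with 7.15, 6.46, 6.69 and 6.85 in SOD1 and 7.37, 7.44, 7.43 and 7.47 in NTg gastrocnemius. That probe set changed by -0.64 (SE 0.18, adjusted p = 0.0301, limma), and the others by -0.29 and 0.04.

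Of the deubiquitinases, 36 probe sets of 26 genes were tested in the USP, UCH and OTU families, and 5 probe sets of 4 genes fell while none rose. Usp9x, a large deubiquitinase encoded on the X chromosome, had 7.28, 6.73, 7.11 and 7.34 in SOD1 gastrocnemius and 7.77, 8.10, 7.54 and 7.82 in NTg gastrocnemius. The groups did not overlap, and the change was -0.69 (SE 0.15, 1.62-fold lower, adjusted p = 0.00876, limma). Its second called probe set changed by -0.70 (SE 0.18, adjusted p = 0.0214, limma), and a further tested one had 0.12.

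Usp15, known for its action on TGF-beta receptor signalling, had 8.10, 8.05, 8.03 and 7.97 in SOD1 gastrocnemius and 8.61, 8.59, 8.54 and 8.59 in NTg gastrocnemius. Arrays within each group were close together, and the change was -0.55 (SE 0.17, adjusted p = 0.0434, limma). Usp10 fell by 0.42 (SE 0.13, adjusted p = 0.0398) and the OTU-family gene Otud6b by 0.46 (SE 0.14, adjusted p = 0.0405, both limma). Usp14 and Uchl5, which act at the proteasome, were not called: Usp14 had 0.28, -0.15 and -0.20 on its probe sets and Uchl5 had -0.24. Usp19, described in rodents as a regulator of muscle mass, had 0.39 and 0.16 (adjusted p = 0.166 and 0.476), and Usp2 had 0.07 and -0.12.

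Probe sets of one gene did not always move together. Of 33 genes with several tested probe sets, 17 had changes of one sign in SOD1 against NTg gastrocnemius, and 4 were called by some of their probe sets and not by others. None was called in both directions. The 4 are Ube2d3, Rnf14 and Usp9x, which fell, and a gene that rose. That rise was therefore not called on every tested probe set of its gene. Only 2 of the 33 were called by all of their tested probe sets. Of the 15 genes that fell, 12 were called by every tested probe set, but this includes genes with only 1. Among the 228 probe sets, 52 carry the suffix for several transcripts of a gene and 28 one for sequence shared with other genes, which includes 1 of the 3 Cul3 probe sets.

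Markers of other cells moved with the same comparison. Of 8 tested macrophage markers, 6 rose in SOD1 gastrocnemius (C1qa, C1qb, Csf1r, Ctss, Lgals3 and Adgre1), and the summed signal of the 9 measured was 1397 to 2102 in SOD1 and 767 to 964 in NTg gastrocnemius. All 3 tested denervation-response genes rose, Chrna1 by 3.54, Gadd45a by 3.43 and Myog by 3.24 (adjusted p = 0.00846, 0.00689 and 0.00634, limma). None of 7 fibroblast, 3 Schwann cell or 5 endothelial markers was called. The part of these cells in the changes of the members was not tested, and in whole muscle fewer cells of a type and less RNA per cell cannot be told apart.

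After nerve crush, Cul3, Usp9x and Usp10 were lower and Trim16 and Rnf181 higher than in NTg gastrocnemius. By limma, 6 probe sets of 5 genes were called, which is 3.68% of the members against 4.13% of all tested probe sets. Of the members 2 were higher (1.23%, against 1.08% of all probe sets) and 4 lower (2.45%, against 3.06%). The median change was -0.01 over the members and 0.02 over all probe sets, and the arrays did not overlap for 30 members (18.4%; 16.4% of all). The NTg gastrocnemius arrays are the same as in the comparison with SOD1 muscle. The count was smaller when any 1 of the compared arrays was left out. It was 5 without crush replicate 4 and 4 without crush replicate 3. It was 1 without crush replicate 2 or NTg replicate 2 or 4, and 2 without crush replicate 1 or NTg replicate 1 or 3. In each of these fits a smaller share of the members than of all probe sets was called (0.613% to 3.07%, against 1.25% to 5.25%).

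Trim16, a TRIM protein linked to autophagy of damaged organelles, was the member with the smallest p. Its signals were 6.88, 6.99, 7.31 and 7.31 in crushed gastrocnemius and 6.34, 6.41, 6.46 and 6.46 in NTg gastrocnemius. SOD1 gastrocnemius had 6.59 to 6.89, above the NTg arrays, with its highest array just above the lowest crush array. The change after crush was 0.70 (SE 0.13, 1.63-fold higher, adjusted p = 0.0063, limma) and it was called without each array in turn. In SOD1 muscle the change was 0.36 (adjusted p = 0.0796). A second Trim16 probe set had 8.20, 7.62, 6.60 and 7.58 in crushed and 7.13, 6.74, 7.09 and 7.25 in NTg gastrocnemius, which overlap.

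Cul3 had 8.11, 7.95, 8.07 and 7.41 in crushed gastrocnemius, against 8.73 to 8.92 in NTg gastrocnemius. All crush arrays were below all NTg arrays, and crush replicate 4 was the lowest. The change was -0.96 (SE 0.25, adjusted p = 0.0369, limma), and -0.87 (SE 0.23, adjusted p = 0.0351, limma) on a second probe set. Without crush replicate 4 neither was called. Of the 8 fits that leave out 1 crush or NTg gastrocnemius array, the first lost the call in 8 and the second in 7.

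Usp9x had 7.02, 7.22, 7.35 and 7.18 in crushed gastrocnemius and 7.77, 8.10, 7.54 and 7.82 in NTg gastrocnemius, a change of -0.62 (SE 0.15, adjusted p = 0.0255, limma). Usp10, known for the stress granule protein G3BP and for p53, had 6.93, 6.69, 6.64 and 6.77 in crushed and 7.16, 7.38, 7.18 and 7.42 in NTg gastrocnemius, a change of -0.53 (SE 0.13, adjusted p = 0.0255, limma). Rnf181 was at the threshold, with 0.60 (SE 0.17, adjusted p = 0.04996, limma), 7.97 to 8.72 in crushed and 7.55 to 7.68 in NTg gastrocnemius. Without crush replicate 4, whose value was the highest, it was not called, while Usp9x and Usp10 were. Of the 8 fits that leave out 1 crush or NTg gastrocnemius array, Rnf181 lost the call in 8. Usp9x and Usp10 lost it in 5 each. Rnf181 was also not called without the filter, without the trend, with a robust prior or on the compared arrays alone.

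Of the 21 probe sets that fell in SOD1 gastrocnemius, 20 were below 0 after crush, with a median of -0.47. The 5 that rose were all above 0, with a median of 0.52. These counts include the 5 probe sets called in both comparisons, and both comparisons use the same NTg arrays. Some of the remaining probe sets called in SOD1 muscle are set beside their crush values. Ube2d1 had a crush change of -0.54 (adjusted p = 0.173), Ube2b -0.45 (0.159), Trim54 -0.47 (0.0726), Fbxw5 -0.50 (0.069) and the Ube2d3 probe set of lowest level -0.83 (0.056). Usp15 had -0.01, Rnf14 0.13 and Rnf19a 0.08 after crush (adjusted p = 0.988, 0.74 and 0.907). For Usp15 the crush arrays held 8.50 to 8.63 and the NTg arrays 8.54 to 8.61. A Schwann cell marker fell after crush, Mbp by 2.35 (adjusted p = 0.0163, limma), and no macrophage marker was called.

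**Figure D3:**
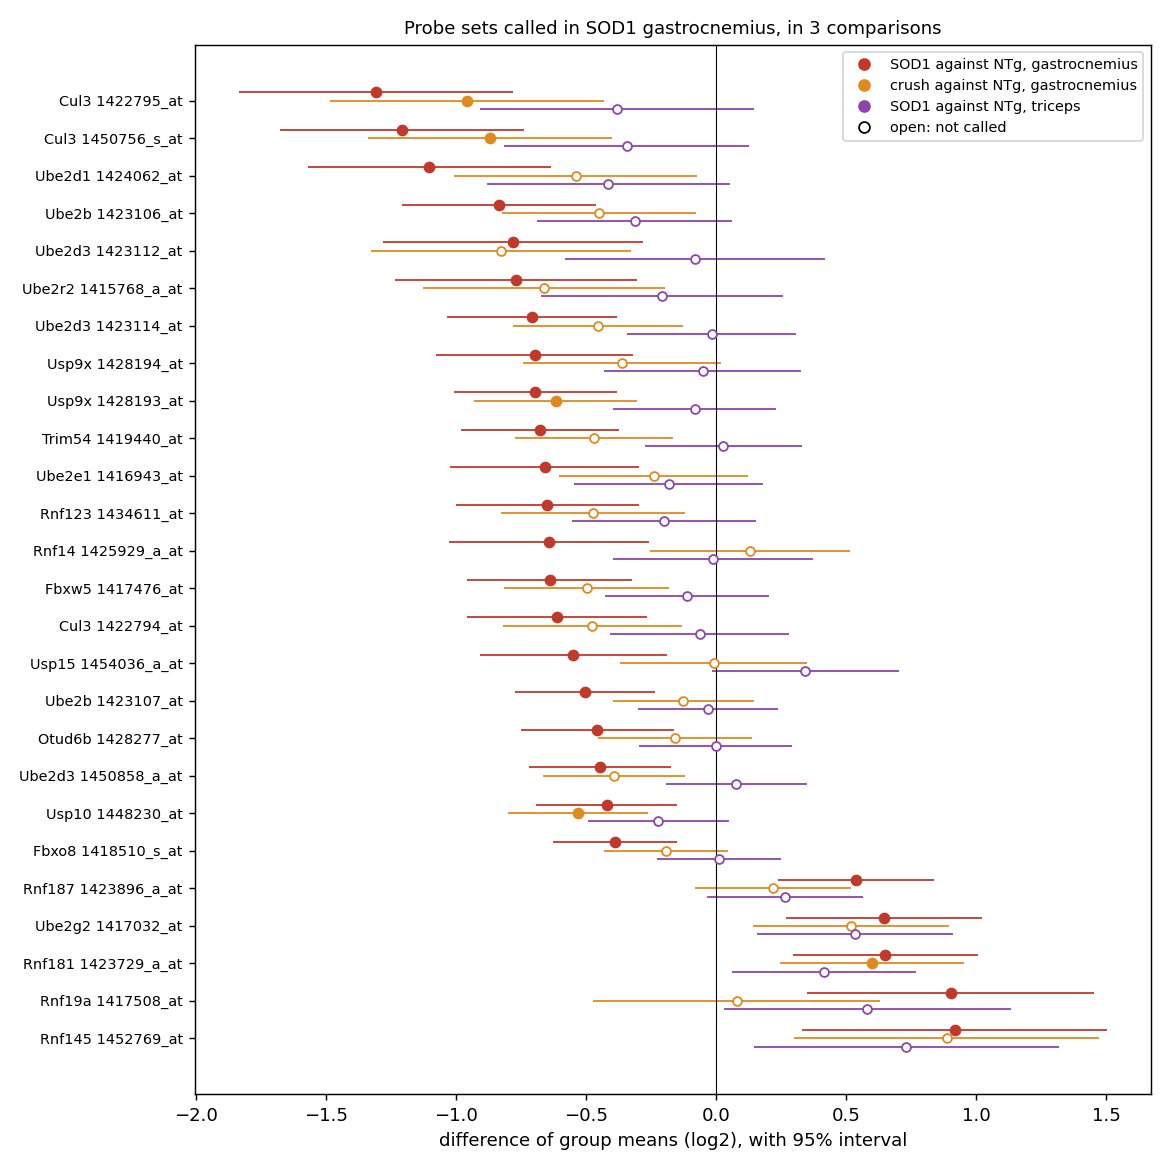
Difference of group means (log2, x axis) with its unadjusted 95% interval for the 26 probe sets called in SOD1 gastrocnemius (y axis, gene and probe set), in 3 comparisons; filled points were called and open ones were not. The crush and SOD1 comparisons of gastrocnemius share the NTg arrays. Of the 26, 5 were also called after crush and 0 in triceps.

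In triceps no member was called between SOD1 and NTg mice by limma, where 0.239% of all tested probe sets were. At an unadjusted p under 0.05 there were 17 members (10.4%, against 15.2% of all probe sets), and the arrays did not overlap for 10 (6.13%, against 6.99%). The member median was 0.03 and that of all probe sets 0.01. A single member (0.613%) was called without SOD1 triceps replicate 1 or 3, NTg triceps replicate 4 or crush replicate 4. In these fits 0.213%, 0.279%, 0.332% and 2.22% of all probe sets were called, in that order. Without NTg triceps replicate 1, 2 members were called (1.23%, against 0.479% of all). The denervation-response sum was 726 to 5344 in SOD1 triceps, highest in replicate 4, and 223 to 298 in NTg triceps. All 10 muscle markers were below 0 in SOD1 triceps, with a median of -0.72 and none called.

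Usp14, the deubiquitinase of the proteasome cap, came nearest. On one probe set it had 7.27, 8.11, 7.27 and 7.77 in SOD1 triceps and 7.06, 6.22, 6.15 and 6.89 in NTg triceps, without overlap. The change was 1.03 (SE 0.22, adjusted p = 0.0566, limma), and the call depended on the fit. With the replicate number as a block the adjusted p was 0.032, and with array weights 0.0328, both under the threshold. It was also under it without crush replicate 4 (0.0161), NTg triceps replicate 1 or 4 (0.033 and 0.0454) or SOD1 triceps replicate 1 or 3 (0.0488 and 0.0442), and reached 0.22 without SOD1 triceps replicate 4 (limma). Its 2 other tested probe sets both had 0.19 (adjusted p = 0.552 and 0.519).

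The next largest positive changes in triceps were Rnf145 with 0.73, Trim27 with 0.71 and Rnf19a with 0.58 (adjusted p = 0.245, 0.275 and 0.305). Rnf19a had 6.48, 6.83, 6.78 and 7.67 in SOD1 triceps and 6.30, 6.55, 6.19 and 6.39 in NTg triceps; replicate 4 was highest and replicate 1 within the NTg range. The largest negative changes were Trim30a with -0.59, Trim35 with -0.43, Ube2d1 with -0.41 and Cul3 with -0.38 (adjusted p = 0.211, 0.528, 0.372 and 0.462). Of the 21 probe sets that fell in SOD1 gastrocnemius, 17 were below 0 in triceps, with a median of -0.08, and the 5 that rose were all above 0, with a median of 0.54.

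The NTg triceps arrays differed among themselves for several of these genes. Cul3 had 8.10, 8.15, 7.81 and 7.15 in SOD1 triceps and 8.85, 7.86, 7.92 and 8.10 in NTg triceps, where replicate 1 was far above the others. Over the 21 probe sets that fell in SOD1 gastrocnemius, the mean difference from NTg gastrocnemius was -0.18, -0.11, -0.39 and -0.62 on the SOD1 triceps arrays. On the NTg triceps arrays it was 0.08, -0.32, -0.36 and -0.28. Only replicate 1 was near the NTg gastrocnemius level. The 21 probe sets were chosen with these same NTg gastrocnemius arrays as the higher group. Values below 0 on other arrays may therefore follow in part from the choice.

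The SOD1 change in gastrocnemius was then set against that in triceps. By limma no member and no other probe set was called for this difference of changes (0% of all tested), with 25 members (15.3%) and 9.44% of all probe sets at an unadjusted p under 0.05. The difference was below 0 for 120 of 163 members, with a median of -0.15 against -0.02 over all probe sets. The largest were Trim30a, an interferon-induced mouse TRIM gene, with 1.05 (95% interval 0.45 to 1.64) and Cul3 with -0.93 (-1.67 to -0.18), at adjusted p = 0.386 and 0.485. Usp15 had -0.89 (-1.40 to -0.38, adjusted p = 0.386). Without NTg triceps replicate 1, 2 members were called (1.23%, against 0.452% of all), both lower.

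Between the muscles of NTg mice, 4 members were called (2.45%, against 1.71% of all tested probe sets), all higher in gastrocnemius, where 1.52% of all probe sets were called higher. The arrays did not overlap for 11 members (6.75%, against 10.3% of all). Usp15 had 8.61, 8.59, 8.54 and 8.59 in gastrocnemius and 8.57, 7.78, 7.31 and 7.76 in triceps. Ube2h had 8.13, 8.03, 8.26 and 8.19 in gastrocnemius and 7.81, 7.14, 7.43 and 7.29 in triceps. Usp13 had 7.27 to 7.79 in gastrocnemius and 5.96 to 6.97 in triceps, a difference of 0.99 (SE 0.24, adjusted p = 0.0371, limma), and Rnf14 differed by 0.77 (SE 0.18, adjusted p = 0.0369, limma). The count was 15 without NTg triceps replicate 1 (9.2%, against 4.35% of all probe sets). It was 0 without NTg triceps replicate 3 or 4 or NTg gastrocnemius replicate 1, 3 or 4 (0.412% to 0.638% of all). Without replicate 2 of gastrocnemius or of triceps it was 1 (0.613%, against 1.08% and 0.399% of all).

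Between SOD1 and crushed gastrocnemius no member was called by limma, and neither was any other probe set (0% of 7523; 24 members, 14.7%, and 12.5% of all at an unadjusted p under 0.05). The arrays did not overlap for 10 members (6.13%, against 5.48% of all). The largest negative changes were Rnf14 with -0.77 (95% interval -1.16 to -0.39) and Trim35 with -0.72 (-1.42 to -0.02), at adjusted p = 0.145 and 0.383. The largest positive ones were Rnf19a with 0.82 (0.27 to 1.38) and Rnf114 with 0.50 (0.05 to 0.94), at adjusted p = 0.226 and 0.349.

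This comparison depended on crush replicate 4, the crush array whose sum of denervation-response genes was above the SOD1 range. Without it, 9 members were called (5.52%, against 8.03% of all tested probe sets), 7 lower and 2 higher in SOD1 muscle. Rnf14 was lower on 2 probe sets. The more strongly changed had 7.15, 6.46, 6.69 and 6.85 in SOD1 gastrocnemius and 7.77, 7.69, 7.46 and 7.32 in crushed gastrocnemius, a change of -0.85 without the last array (SE 0.20, adjusted p = 0.0137, limma).

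Trim24, a TRIM-family transcriptional coregulator, had 6.60, 6.22, 6.33 and 6.39 in SOD1 gastrocnemius and 7.08, 7.16, 7.13 and 6.26 in crushed gastrocnemius. Crush replicate 4 lay among the SOD1 arrays, and the change without it was -0.73 (SE 0.15, adjusted p = 0.00735, limma). Fbxo3 and Fbxo9 were lower by 0.56 and 0.40, and Ube2d1 and Ube2e1 by 0.78 and 0.57. Higher were Rnf19a, by 1.08 (SE 0.25, adjusted p = 0.013, limma), and Rnf187, by 0.49. For Rnf19a the crush arrays held 6.14, 6.10, 6.45 and 7.26 and the NTg arrays 6.16 to 6.54.

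**Figure D4:**
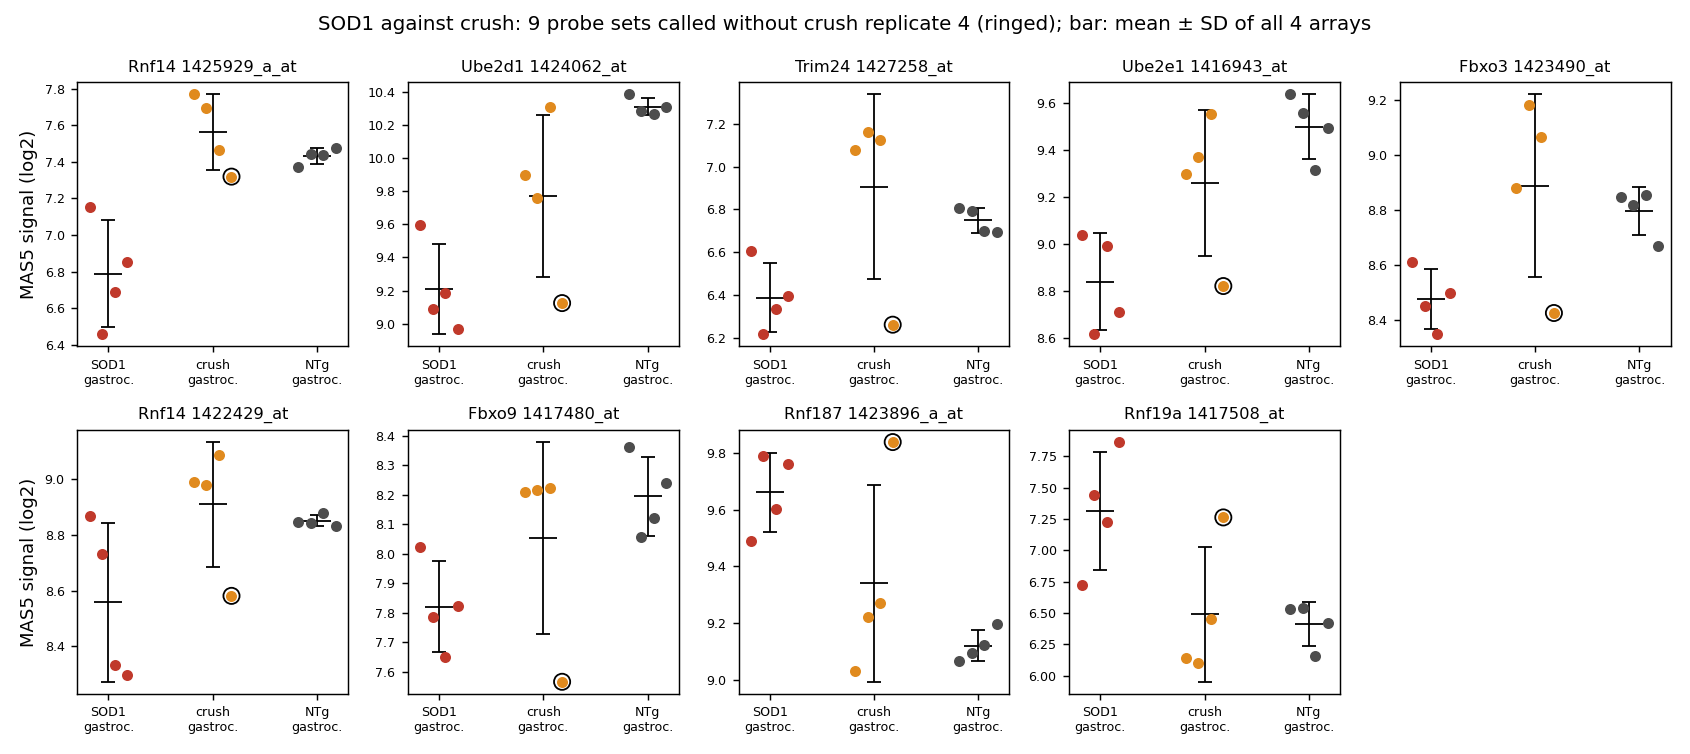
Deposited MAS5 signal (log2, y axis, scaled to each probe set and not starting at 0) on each array of SOD1, crushed and NTg gastrocnemius (x axis) for the 9 probe sets called between SOD1 and crush without crush replicate 4, which is ringed; bars are mean ± SD of all 4 arrays. The other 3 crush arrays lie apart from the SOD1 arrays, and the ringed one is nearer to them or among them. These probe sets were chosen as called without that array and not with it, so the pattern follows in part from the choice.

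Without crush replicate 4 in the fit, 36 members were called between SOD1 and NTg gastrocnemius (22.1%, against 17.8% of all tested probe sets), 8 higher and 28 lower. The 26 above were among them, and Rnf146, Rnf10, Usp47, Fbxo9 and Ube2e3 were among those added on the lower side. After crush, 5 were called (3.07%, against 5.25%): Usp9x, Usp10, Ube2d3 and Rnf11 lower and Trim16 higher.

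Other genes of the pathway were taken from 6 lists. In SOD1 against NTg gastrocnemius, 6 of 68 tested genes were called, 2 higher and 4 lower, which is 8.82%, below the 12% of all tested probe sets. Without SOD1 replicate 4, 0 were called (2.37% of all), so each of the 6 calls was lost there. Without SOD1 replicate 1, 2 or 3 the count was 6, 4 and 1 (17.5%, 4.94% and 5.54% of all). Without NTg replicate 1, 2, 3 or 4 it was 3, 2, 4 and 2 (5.88%, 5.57%, 6.62% and 4.85% of all). The values below are from the fit to all 20 arrays. Of 19 cullin-ligase adaptors and regulators, Ddb1, the adaptor of the Cul4 ligase, rose by 1.04 (SE 0.23, adjusted p = 0.0095, limma), with 8.07 to 8.90 in SOD1 and 7.28 to 7.43 in NTg gastrocnemius. Spop, a BTB-domain substrate receptor of Cul3, fell by 0.50 (SE 0.13, adjusted p = 0.0222), and Elob (elongin B) fell by 0.41 (SE 0.13, adjusted p = 0.0406, both limma). Of 26 other E2 and E3 genes, the HECT ligase Wwp1 fell by 0.79 (SE 0.20, adjusted p = 0.0193, limma), with 8.05 to 8.66 in SOD1 and 9.02 to 9.18 in NTg gastrocnemius.

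Of 6 other deubiquitinases, Brcc3 fell by 0.40 (SE 0.13, adjusted p = 0.043, limma). Of 13 ubiquitin receptors and cofactors of the p97 ATPase, Ubxn4 of the endoplasmic reticulum rose by 0.96 (SE 0.24, adjusted p = 0.0177, limma), with 7.93 to 8.83 in SOD1 and 7.35 to 7.79 in NTg gastrocnemius. In SOD1 triceps all 13 of these genes were above 0, with a median of 0.30 and none called. None of 3 tested E1-type genes was called, the largest being Sae1 with -0.40 (adjusted p = 0.123).

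Of the atrophy ligases left out by name, Fbxo32 was measured. It had 8.17, 8.97, 8.88 and 8.30 in SOD1 gastrocnemius and 8.31, 8.80, 8.72 and 8.74 in NTg gastrocnemius, which overlap (change -0.06, SE 0.21, adjusted p = 0.874). In crushed gastrocnemius it had 7.77, 7.55, 8.08 and 8.02, below all NTg arrays (change -0.79, SE 0.21, adjusted p = 0.0374, limma). It was the 1 pathway gene called after crush (1.47% of the tested ones, against 4.13% of all tested probe sets). No pathway gene was called after crush without crush replicate 1 or 2 or NTg gastrocnemius replicate 2, 3 or 4. The Fbxo32 call was thus lost in these fits, where 1.25% to 2.57% of all probe sets were called. In triceps no pathway gene was called, where 0.239% of all probe sets were.

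The promoter table held 153 windows for 113 of the 144 member genes, of 32851 windows in all. The latter cover 27025 genes and were not limited to genes on the arrays. A GC box GGGCGG stood in 67.3% of the member windows, against 32.7% of all windows. Of the 16 windows of genes that fell in SOD1 gastrocnemius, 11 held it (68.8%), near the share of all members. These 16 windows belong to 12 of the 15 genes that fell, and some genes have more than 1 window. CAGCTG stood in 4 of these 16 windows (25%), against 11.1% of the member windows and 13% of all. CCAAT stood in 18.8% of the 16, 28.1% of the members and 33.8% of all. The FoxO site TGTTTAC was in 1 of the 16, and in 2.61% of the member windows against 3.17% of all, and the MEF2 site was in none of the 16. Both strands were searched, and matches of different motifs could overlap.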

How the data were processed

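RNA of 20 muscle samples was measured on Affymetrix mouse arrays, from 4 ug of total RNA per the labels' protocols. The deposited table gives log2 values, from -3.66 to 13.3; the authors computed the signals with MAS5, per the submitters' processing notes, but no source used here gives its version, scaling target or filters. The values were used without further scaling. Arrays carry no read depth, and their number, 4 per group, limits the precision.

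Gene symbols are those of the platform annotation (9874 probe sets with 1 symbol, 387 with several, 487 with none); 7 probe sets that pair a member's name with other symbols were left out. The lowest 30% of probe sets by mean were left out. With limma 3.58.1 (R 4.3.3), 1 model of 5 group means took in all 20 arrays (eBayes with a trend, 15 residual degrees of freedom). It was tested on simulated data. Each of 6 comparisons was adjusted by Benjamini-Hochberg. Figures were drawn with matplotlib 3.10.9.

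The members and lists were chosen with earlier results of these data known. In each comparison against NTg, up to 12 called members in each direction were named, or the 4 largest changes in each direction where fewer than 6 were called, and in the others up to 5 called or the 2 largest. Members with a known role and members whose probe sets disagree could be named too. From each pathway list, called genes were named. Names taken from the fit that omits crush replicate 4, or from below the filter, were chosen after the values were seen. A pathway or marker gene was represented by its probe set of highest mean.

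Tried as alternatives were leaving out each array in turn, array weights, a replicate block, a fit to the compared arrays alone, no filter or one at 60%, no trend, a 1.5-fold threshold added to the adjusted p, a robust prior, and scaling by quantiles or by the 75th percentile.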

Additional observations from a re-analysis of the deposited data

Results flagged for a closer look

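Values far from the rest of their group were looked for in 36 named probe sets over 5 groups of 4 arrays. Of 180 groups, 3 held such a value, where chance alone flags about 1 in 20. Usp14 had 7.54 on SOD1 gastrocnemius replicate 4, with the other 3 arrays at 7.05 to 7.13. Ube2h had 7.10 on SOD1 triceps replicate 2, with the others at 7.74 to 7.82. Rnf123 had 8.10 on NTg gastrocnemius replicate 3, with the others at 8.26 to 8.28. None of the 3 was on crush replicate 4.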

How the results depend on the processing

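Leaving aside the fits without an array and the 1.5-fold threshold, all 26 members called in SOD1 against NTg gastrocnemius were called under each alternative that tested them, as were 5 of 6 after crush and 2 of 4 between NTg muscles. With the lowest 60% left out, 5 of the 26, 1 of the 6 and 2 of the 4 were not tested. At least 1.5-fold changed were 19 of the 26, 5 of the 6 (Usp10 was not) and all 4. No named change turned its direction. With array weights, 55 members were called in SOD1 gastrocnemius (11 higher, 44 lower; 33.7%, against 33.4% of all probe sets), 23 after crush (6 higher, 17 lower; 14.1%, against 16.5%), 1 in triceps (0.613%, against 0.665%), 24 between SOD1 and crush (6 higher, 18 lower; 14.7%, against 17%) and 8 between NTg muscles (4.91%, against 4.79%), and 22, 7, 2, 12 and 1 pathway genes. On the compared arrays alone the members were 44 in SOD1 gastrocnemius (27%, against 23.5%), 10 after crush (6.13%, against 5.36%) and 2 between NTg muscles (1.23%, against 1.54%), and the pathway genes 14, 2 and, in triceps, 1. In triceps that fit called 0.359% of all probe sets. With the lowest 60% left out, 2 members were called between NTg muscles (2.27%, against 1.86% of all). With the replicate block, 2 members (1.23%) and 4 pathway genes (5.88%) were called in triceps, against 1.38% of all probe sets. Pathway genes called with the block were 10 in SOD1 gastrocnemius (14.7%, against 17.4%) and 2 after crush (2.94%, against 6.57%). In no comparison were all 4 correlations of same-numbered deviations over 0.1, so the numbers were not taken as pairs, although this rule cannot exclude pairs. They were -0.17 to 0.03 between SOD1 and NTg gastrocnemius, -0.13 to 0.08 between crush and NTg, 0.04 to 0.16 between SOD1 and NTg triceps, 0.05 to 0.45 between SOD1 and crush, -0.09 to 0.24 between NTg muscles and -0.10 to 0.62 between SOD1 muscles. The SOD1 muscles had 0.57 and 0.62 for replicates 1 and 4, each best with its own number, and not for replicates 2 and 3. The titles give only replicate numbers, so gastrocnemius and triceps arrays may come from the same mice. The model treats them as independent. Leaving out arrays gave 7 to 36 members in SOD1 gastrocnemius, 1 to 5 after crush, 0 to 2 in triceps, 0 to 9 between SOD1 and crush, 0 to 2 for the difference between muscles and 0 to 15 between NTg muscles. The share of all probe sets called moved too. In the same order it was 2.37% to 17.8%, 1.25% to 5.25%, 0.0399% to 2.22%, 0% to 8.03%, 0% to 0.452% and 0.399% to 4.35%. Pathway genes then numbered 0 to 10, 0 to 2, 0 to 7, 0 to 5, 0 and 0 to 1 in the same order. MAS5 signals near background have no floor here, which limits the 65 untested members.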

Other observations

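The filter on low values left out 65 member probe sets, with means of 2.64 to 5.87, and a fit without it called 3 of them in SOD1 against NTg gastrocnemius, where 9.13% of all probe sets were called. Uchl1, a hydrolase best known as an abundant protein of neurons, had 5.86, 7.20, 6.99 and 8.14 in SOD1 gastrocnemius, 6.48, 6.39, 6.09 and 6.94 in crushed gastrocnemius and 4.32, 4.22, 4.14 and 5.08 in NTg gastrocnemius. All SOD1 and crush arrays were above all NTg arrays. The change was 2.61 in SOD1 muscle on the log2 scale (95% interval 1.33 to 3.89, adjusted p = 0.0151, limma) and 2.04 after crush (adjusted p = 0.0786). All NTg arrays lay under the filter, where signals are near background, so the size of this change is uncertain. In triceps Uchl1 had 3.84, 3.83, 4.88 and 7.88 in SOD1 mice and 3.90, 3.78, 4.12 and 3.49 in NTg mice. SOD1 triceps replicate 4, the high one, was also the SOD1 triceps array with the highest sum of denervation-response genes, and the part of denervation in this value was not tested.

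The other members below the filter that this fit called in SOD1 gastrocnemius were a probe set of Fbxo9, lower by 0.77 (adjusted p = 0.00726), and one of Ube3a, the Angelman syndrome ligase, lower by 0.91 (adjusted p = 0.0302, both limma). The tested probe set of Ube3a had a change of 0.09 (adjusted p = 0.694). After crush, 2 such members were called, where 2.87% of all probe sets were. Otub2 had 4.86, 4.65, 4.78 and 3.85 in crushed gastrocnemius and 5.99, 6.05, 5.30 and 6.60 in NTg gastrocnemius, a change of -1.45 (SE 0.28, adjusted p = 0.00784, limma). Trim7 changed by 0.90 on one probe set (adjusted p = 0.0417, limma) and by -1.09 on another (adjusted p = 0.36).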
